A study of Mus musculus with 9 samples.

Results

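Transcripts of 46 genes of the antioxidant and glutathione system were followed in mouse lung. They were taken by symbol from a table of 45777 genes, and 45 of the 46 had enough counts to be tested. They comprise the transcription factor Nrf2 (gene Nfe2l2) and its inhibitor Keap1, 4 genes of glutathione supply and recycling, 4 glutathione peroxidases, 11 glutathione transferases, 6 genes of the thioredoxin system, 6 peroxiredoxins, 5 genes of NADPH supply, 3 of catalase and the superoxide dismutases, and 5 of detoxification and export. Whole lung RNA came from male C57BL/6N mice in 3 groups of 3 libraries. The EA-BN-H group received LPS at 0.5 mg/kg through the nose together with CSC, a condensate of cigarette smoke, at 12.5 mg/kg on days 1, 6 and 13, and 200 mg/kg per day by mouth of EA-BN, the ethyl acetate fraction of Boehmeria nivea leaves, in 2% DMSO from day 1 to day 14. The COPD group received the same LPS and CSC with the vehicle by mouth. The NC group received PBS through the nose and the vehicle by mouth. Lungs were taken on day 15, so the model is a short exposure, and the labels do not say whether each library came from a single animal. The comparisons ask how these genes differed after LPS and CSC, and between exposed mice with and without EA-BN.

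Nrf2 is held in the cytoplasm by Keap1, which presents it for degradation. When oxidants or electrophiles modify Keap1, Nrf2 enters the nucleus, pairs with small Maf proteins and binds antioxidant response elements. Its known targets make glutathione, reduce quinones and supply NADPH. In the lung many of these enzymes are abundant in airway and alveolar epithelium, which meets inhaled oxidants first. Nrf2 is regulated mostly as a protein, so its own mRNA level does not measure its activity.

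The element that Nrf2 binds has the core TGACNNNGC, and promoters were searched for it on both strands in the RefSeq windows of GRCm38.p6, which run from 250 bases before to 50 bases after a start site. Windows were found for 40 of the 46 genes, and 12 of these 40 held the core, in 12 of their 49 windows (24.5%), against 12.4% of all 32851 windows. The windows of Gclc, Gsr, Gsta4, Prdx6, Sod3 and Abcc1 were not used here. The matches of Srxn1 and Pgd lie after the start site, inside the transcript. In the Pgd window a run of T followed by cag comes shortly before the match, as at the start of an inner exon. This window may therefore not be a promoter. The members include known Nrf2 targets, so the share among them is not independent of how they were chosen. The 12 matches are shown because they divide the members by a sequence feature. Each is read 5′ to 3′ on the gene's own strand with the core in capitals.
Nfe2l2 (chr2:75704895-75704903, the gene strand, 240 bases before the start): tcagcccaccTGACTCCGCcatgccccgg
Gclm (chr3:122245423-122245431, the other strand, 134 bases before the start): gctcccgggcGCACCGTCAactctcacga
Gsta3 (chr1:21240464-21240472, the gene strand, 121 bases before the start): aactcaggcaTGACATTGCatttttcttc
Gstm5 (chr3:107895812-107895820, the gene strand, 42 bases before the start): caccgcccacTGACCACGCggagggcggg
Mgst1 (chr6:138140471-138140479, the other strand, 56 bases before the start): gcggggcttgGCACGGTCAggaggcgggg
Txnrd1 (chr10:82859114-82859122, the other strand, 92 bases before the start): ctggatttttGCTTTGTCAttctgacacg
Srxn1 (chr2:152105552-152105560, the other strand, 28 bases after the start): gcagtgggcaGCTAGGTCAgagtgagaca
Prdx1 (chr4:116685466-116685474, the other strand, 133 bases before the start): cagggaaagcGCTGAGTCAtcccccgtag
G6pdx (chrX:74428929-74428937, the other strand, 57 bases before the start): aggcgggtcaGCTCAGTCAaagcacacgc
Pgd (chr4:149166071-149166079, the gene strand, 3 bases after the start): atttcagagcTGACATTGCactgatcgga
Me1 (chr9:86695912-86695920, the gene strand, 6 bases before the start): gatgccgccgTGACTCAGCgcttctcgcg
Sod1 (chr16:90220706-90220714, the other strand, 56 bases before the start): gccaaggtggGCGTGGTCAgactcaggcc

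For COPD against NC, Nqo1, the quinone reductase with the largest negative difference, and Slc7a11, the cystine carrier with the largest positive one, were not among the 12, while Gsta3, which had the next largest difference in size, was. Nqo1 and Slc7a11 held no such core in their windows, which are shown whole for that reason. Sequence outside the windows was not searched, and a gene without a core there may still have the element. In the window of Slc7a11 the capitals mark TGATGNAA, the core of the composite site of ATF4, a factor of the amino acid and stress response. It occurred there once on each strand, 47 and 66 bases before the start, without overlap, and in the window of no other member. So 1 of the 40 members with a window held it (2.5%), against 4.51% of all 27025 genes, a share no larger than that of all genes. Any part of ATF4 in the level of Slc7a11 was not tested. Letters that match are a description of these windows and not of bound sites.
Slc7a11 (chr3:50443564-50443863, minus strand): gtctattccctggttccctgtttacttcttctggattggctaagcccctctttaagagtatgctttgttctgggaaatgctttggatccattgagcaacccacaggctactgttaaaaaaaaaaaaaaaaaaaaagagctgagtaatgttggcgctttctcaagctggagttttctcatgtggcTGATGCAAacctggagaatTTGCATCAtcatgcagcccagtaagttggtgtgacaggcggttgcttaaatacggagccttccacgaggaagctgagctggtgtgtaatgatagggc
Nqo1 (chr8:107403156-107403455, minus strand): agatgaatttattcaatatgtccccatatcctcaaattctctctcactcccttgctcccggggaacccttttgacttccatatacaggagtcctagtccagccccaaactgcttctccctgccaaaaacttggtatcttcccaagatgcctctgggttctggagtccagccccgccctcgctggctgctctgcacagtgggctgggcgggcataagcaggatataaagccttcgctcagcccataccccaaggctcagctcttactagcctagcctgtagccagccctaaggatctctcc

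Total counts ran from 25232402 to 42156219 per library, and 7SL RNA, an abundant small RNA, took 32.5 to 63.5% of them. In EA-BN-H replicate 3 it took 63.5%, which left 8245251 counts on nuclear protein-coding genes, against 12180531 to 21513673 in the other 8 libraries. Values below are CPM, a gene's counts scaled to a fixed library size, with size factors from TMM, a method that sets libraries level on the bulk of their genes, and n is 3 for every group. A pair of libraries stood apart for these genes. NC replicate 1 was the highest NC library for 39 of the 46 members, with a median of 0.54 on the log2 scale above the member's mean over all 9 libraries. COPD replicate 2 was the lowest COPD library for 38 of the 46, with a median of -0.53. Medians of the other 7 libraries lay between -0.12 and 0.10. NC replicate 1 also had the lowest sums of the 5 alveolar type 1 cell markers (265 CPM, against 689 and 848 CPM in the other NC libraries) and the 5 endothelial markers (251 CPM, against 668 and 728 CPM). Alveolar type 2 cell markers, the surfactant genes among them, summed to 2669 to 5350 CPM over the 9 libraries, with all 6 found.

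**Figure D1:**
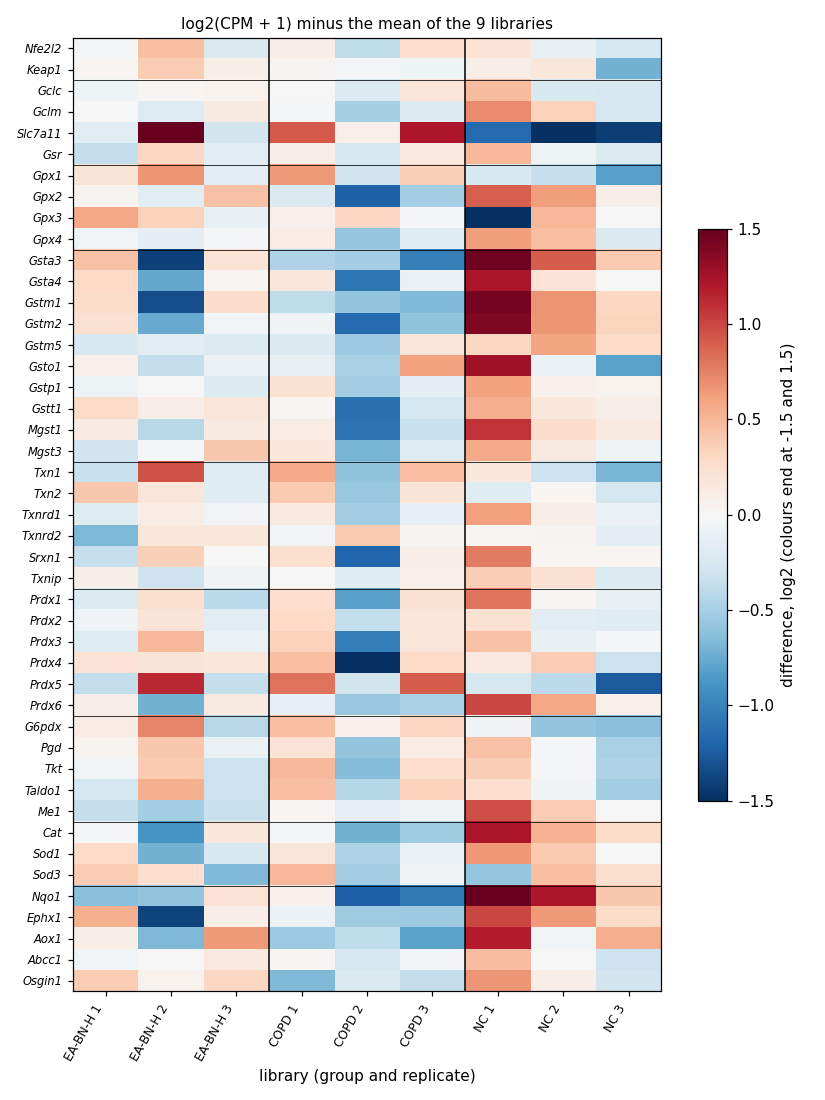
Each row is 1 of the 45 tested genes and each column a library (EA-BN-H, COPD and NC from left to right, 3 replicates each). Colour is the log2 of CPM plus 1, minus the gene's mean over the 9 libraries, in log2 units. The red column of NC replicate 1 and the blue column of COPD replicate 2 correspond to medians of 0.54 and -0.53, and Slc7a11 is blue in all 3 NC libraries.

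Levels between genes were compared per transcript length, as TPM, and are given in the order of their NC means. The most abundant member was Mgst1, a membrane-bound glutathione transferase, with 86.1 ± 25.6 TPM in EA-BN-H, 115 ± 42.6 TPM in COPD and 212 ± 90.1 TPM in NC (SD). Prdx6, a peroxiredoxin that also repairs oxidised surfactant lipids, followed with 57.4 ± 16.4 TPM in EA-BN-H, 78.1 ± 8.94 TPM in COPD and 146 ± 49.5 TPM in NC. Next in NC came Sod1, the cytosolic superoxide dismutase, at 39.4 ± 17.4 TPM in EA-BN-H, 68.1 ± 15.8 TPM in COPD and 90.7 ± 22.7 TPM in NC, Gstm1 at 23.6 ± 10.1 TPM in EA-BN-H, 31.5 ± 2.79 TPM in COPD and 82.6 ± 38.1 TPM in NC and Gpx4, which removes lipid peroxides, at 37.3 ± 15.6 TPM in EA-BN-H, 56.1 ± 14.2 TPM in COPD and 76.3 ± 23.8 TPM in NC. In NC neighbours in this order differed by less than the larger of their SDs, except that Prdx6 and Sod1 differed by slightly more. The order below Prdx6 differed in the exposed groups, where Gpx1 came next, with 50.3 TPM in EA-BN-H and 74.7 TPM in COPD. The lowest tested member in NC was Slc7a11, with 2.08 ± 2.88 TPM in EA-BN-H, 1.86 ± 0.954 TPM in COPD and 0.316 ± 0.0809 TPM in NC. In both exposed groups Nqo1 and Gstm5 were lower than it, at 0.865 and 0.786 TPM in EA-BN-H and 1.08 and 1.36 TPM in COPD. Gsta1, an alpha-class glutathione transferase, had 0, 7 and 5 counts in EA-BN-H, 4, 0 and 3 counts in COPD, and 24, 10 and 0 counts in NC, and was left out of the tests. On log2(TPM + 0.1) the median log2 fold change over all genes was -0.70 for EA-BN-H against COPD. TPM values therefore order genes within a group and do not compare groups. The share of 7SL RNA was 51.0, 38.2 and 63.5% in EA-BN-H replicates 1, 2 and 3, and its part in this shift was not tested.

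After LPS and CSC, transcripts of glutathione transferases, of quinone, epoxide and aldehyde detoxification, and of catalase were lower in COPD than in NC lungs, while those of Slc7a11, Gpx1, Prdx5 and G6pdx were higher. None of these differences passed the adjusted p of 0.05 in edgeR, and the smallest adjusted p of a member was 0.0894, for Gpx2. At an unadjusted p under 0.05, 13 of the 45 were lower (28.9%, where 5.42% of all 18716 genes tested were lower) and 4 were higher (8.89%, where 10% of all genes were higher). The share of members that were higher was thus no larger than that of all genes. At the adjusted p, 1.6% of all genes were called (1.53% higher and 0.0641% lower). COPD and NC libraries did not overlap for 12 members that were lower (10.4% of all genes) and 2 that were higher (14.3% of all genes). The median log2 fold change of the members was -0.33, beside -0.02 over all genes, -0.15 without NC replicate 1 and -0.13 without COPD replicate 2. DESeq2, run on the same counts, called 9 members at an adjusted p under 0.05, of which Prdx6, Aox1, Cat, Gpx2, Gsta3, Gstm1, Gstm2 and Nqo1 were lower and Slc7a11 was higher. The share of all genes that DESeq2 called is not given here for any comparison, so its counts of members stand without that background. With EA-BN-H replicate 2 left out of the shared edgeR fit, 5 members passed, of which Gsta3, Gstm1, Gstm2 and Ephx1 were lower and Slc7a11 was higher. The count at the unadjusted p was 10 without COPD replicate 3 and 11 without NC replicate 2, against 17 with all libraries. Without NC replicate 1 the log2 fold changes of Me1, Mgst1 and Osgin1 were -0.26, -0.57 and -0.36, and without COPD replicate 2 that of Gstt1 was -0.41, each past the unadjusted p with all libraries and not then.

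**Figure D2:**
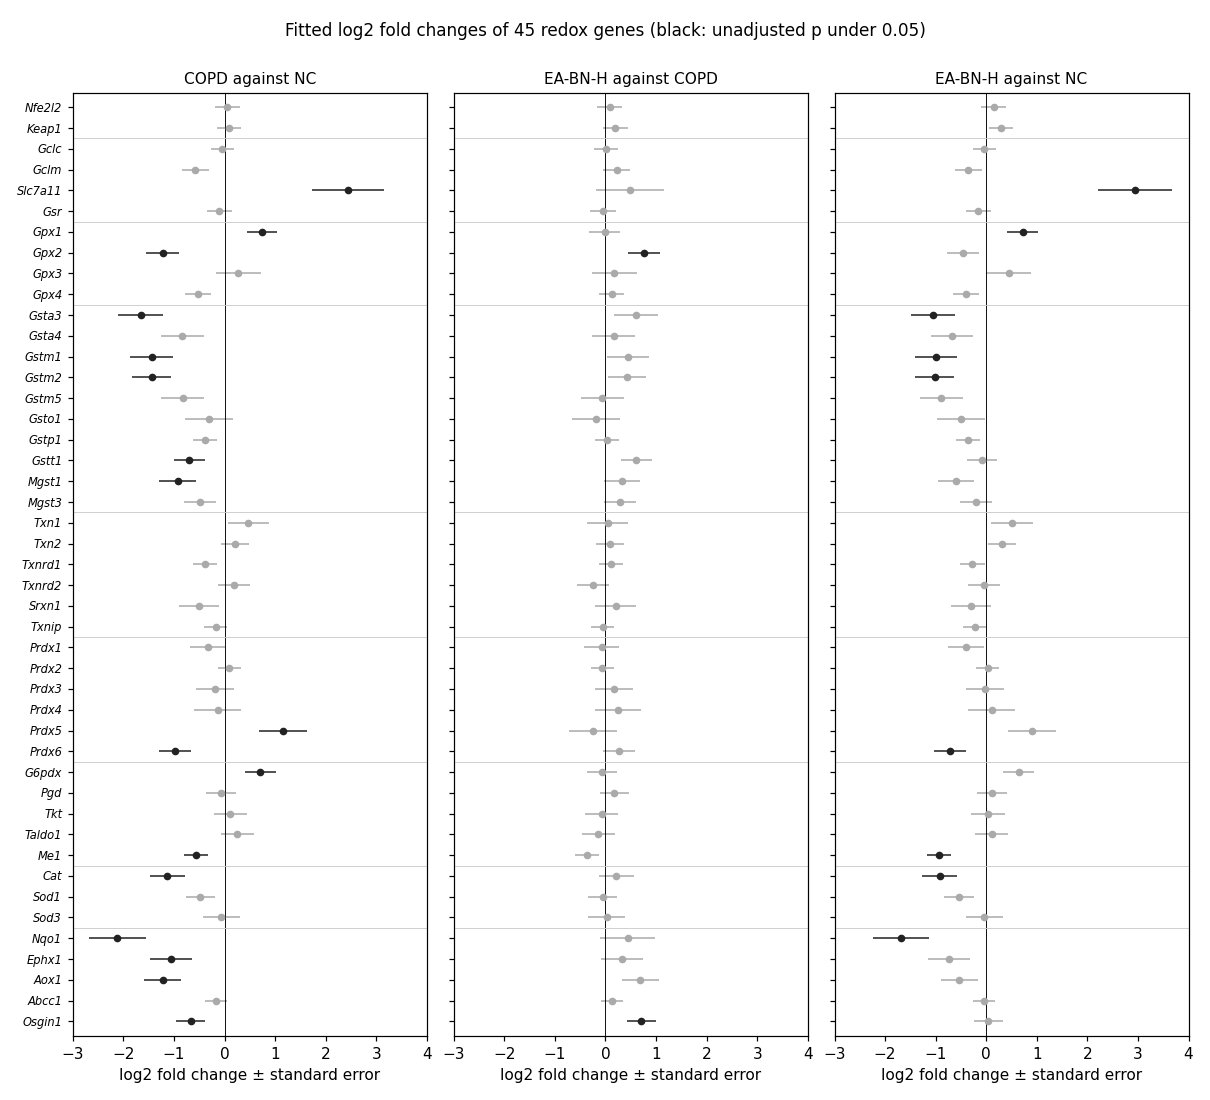
Points are fitted log2 fold changes of the 45 tested genes, grouped by role from top to bottom, with bars of 1 standard error. From left to right the panels compare COPD with NC, EA-BN-H with COPD, and EA-BN-H with NC, and black marks an unadjusted p under 0.05. All 10 glutathione transferases lie left of 0 in the COPD against NC panel, and black points number 17, 2 and 9 in the 3 panels.

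Exposed mice that received EA-BN did not differ from COPD mice in any member at the adjusted p of 0.05. Every adjusted p was 1, and no gene of the 18716 was called in edgeR. At an unadjusted p under 0.05, 2 of the 45 members were higher (4.44%, where 0.801% of all genes were higher) and 0 were lower (0.78% of all genes). The 2 were Gpx2 and Osgin1. DESeq2 called 0 members and also had 2 at an unadjusted p under 0.05, and limma on TPM called 0. EA-BN-H and COPD libraries did not overlap for 3 members that were higher, Gpx2, Gstt1 and Osgin1 (6.67%, where 3% of all genes were higher without overlap), and for 1 that was lower, Me1 (2.22%, against 3.32% of all genes). The median log2 fold change was 0.13 over the members and 0 over all genes. With the library totals in place of TMM this median was -0.28, beside -0.41 over all genes, and without COPD replicate 2 it was -0.07. EA-BN-H replicate 2 weighed most here. Without it 8 members had an unadjusted p under 0.05, with Aox1, Ephx1, Gpx2, Gsta3, Gstm1 and Osgin1 higher and Slc7a11 and Prdx5 lower, and the smallest adjusted p was 0.518. Without COPD replicate 3, EA-BN-H replicate 1 or EA-BN-H replicate 3 the count was 0, and without COPD replicate 2 or NC replicate 2 it was 1. The shares of all genes in these fits with a library left out are not given here.

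Against NC, EA-BN-H lungs had 7 members lower at an unadjusted p under 0.05 (15.6%, where 5.15% of all genes were lower) and 2 higher (4.44%, where 9.33% of all genes were higher). None passed the adjusted p, where 1.13% of all genes did (1.04% higher and 0.0908% lower), and the smallest adjusted p was 0.0825, for Slc7a11. DESeq2 called 2, Me1 as lower and Slc7a11 as higher, and limma on TPM called 0. Libraries did not overlap for 8 members that were lower (17.8%, against 8.17% of all genes) and 2 that were higher (4.44%, against 11.3% of all genes). The median over the members was -0.20, beside 0.00 over all genes, and 0.01 without NC replicate 1. Without EA-BN-H replicate 3, 1 member passed the adjusted p, Slc7a11 (0.0404). The count at the unadjusted p was 9 with all libraries, 5 without NC replicate 1, 5 without NC replicate 2 and 3 without EA-BN-H replicate 2. Without NC replicate 1 the log2 fold changes of Cat, Gstm1, Gstm2, Me1 and Prdx6 were -0.59, -0.60, -0.65, -0.62 and -0.47, against -0.92, -0.99, -1.02, -0.93 and -0.72 with all libraries. Without EA-BN-H replicate 2 those of Gsta3, Gstm1 and Gpx1 were -0.67, -0.62 and 0.47, against -1.06, -0.99 and 0.72 with all libraries.

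Since both exposed groups had received LPS and CSC, their mean was also set against NC. It gave 12 members lower at an unadjusted p under 0.05 (26.7%, where 7.1% of all genes were lower) and 4 higher (8.89%, where 11% of all genes were higher). No member passed the adjusted p, where 3.33% of all genes did (2.75% higher and 0.582% lower), and Nqo1 had the smallest, 0.0501. DESeq2 called 9, and limma called 2 on log2(TPM + 0.1) and 0 on log2(TPM + 1). All 6 exposed libraries lay below all 3 NC libraries for Gstm1, Gstm2, Gstm5, Mgst1, Cat and Nqo1 (13.3%, against 4.37% of all genes), and above them for Slc7a11 (2.22%, against 7.9% of all genes). The median over the members was -0.33, beside -0.02 over all genes, and without NC replicate 1 it was -0.08, the count at the unadjusted p was 10, and Aox1, Me1 and Mgst1 had log2 fold changes of -0.51, -0.44 and -0.40, against -0.88, -0.75 and -0.76 with all libraries. Without EA-BN-H replicates 1, 2 and 3 in turn, 1, 2 and 2 members passed the adjusted p. These 4 comparisons share libraries, so their values are given side by side and not counted as separate evidence.

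Values of the members follow by role. The regulators showed no difference that passed either threshold. Nfe2l2, the gene of Nrf2, had 75.5, 106 and 66.5 CPM in EA-BN-H, 82.8, 59.1 and 91.9 CPM in COPD and 89.4, 71.3 and 64.3 CPM in NC. The groups overlapped, with log2 fold changes of 0.06 ± 0.25 (SE) for COPD against NC and 0.09 ± 0.25 for EA-BN-H against COPD. Keap1 had 34.4, 44.4 and 36.0 CPM in EA-BN-H, 34.7, 33.2 and 32.4 CPM in COPD and 35.9, 38.1 and 20.2 CPM in NC, again with overlap, and fold changes on the log2 scale of 0.09 ± 0.24 for COPD against NC and 0.20 ± 0.24 for EA-BN-H against COPD.

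In glutathione supply, Slc7a11 stood out. It encodes the cystine carrier xCT, which brings in the cysteine precursor for glutathione and is also strongly induced in activated macrophages. It had 11.4, 76.6 and 10.5 CPM in EA-BN-H, 25.2, 13.7 and 31.2 CPM in COPD and 5.20, 3.43 and 4.22 CPM in NC. All exposed libraries were above all NC libraries, and EA-BN-H replicate 2 was far above the other 5 exposed ones. Its log2 fold change was 2.45 ± 0.72 (SE) for COPD against NC (unadjusted p = 0.00646, adjusted p = 0.123) and 2.94 ± 0.73 for EA-BN-H against NC (unadjusted p = 0.00233, adjusted p = 0.0825). Without EA-BN-H replicate 2 the EA-BN-H against NC value was 1.35, and on log2(TPM + 0.1) it was 1.43. For EA-BN-H against COPD it was 0.49 ± 0.67 with all libraries and -1.09 without EA-BN-H replicate 2. Gclc, the catalytic subunit of the enzyme that limits glutathione synthesis, had 119, 127 and 129 CPM in EA-BN-H, 124, 108 and 142 CPM in COPD and 173, 106 and 105 CPM in NC, with log2 fold changes of -0.04 for COPD against NC and 0.01 for EA-BN-H against COPD. Gclm, its modifier subunit, and Gsr, the glutathione reductase, had log2 fold changes of -0.58 and -0.10 for COPD against NC, while between EA-BN-H and COPD they had 0.22 and -0.05. None of these 3 passed the unadjusted p in any comparison.

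The glutathione peroxidases split. Gpx2, the peroxidase of epithelial linings and a known Nrf2 target, had 19.2, 16.5 and 25.7 CPM in EA-BN-H, 15.9, 7.49 and 12.8 CPM in COPD and 35.5, 29.3 and 19.9 CPM in NC. COPD lay below NC and below EA-BN-H without overlap, while EA-BN-H overlapped NC. Its log2 fold change was -1.23 ± 0.32 (SE) for COPD against NC (unadjusted p = 0.00333, adjusted p = 0.0894), 0.76 ± 0.32 for EA-BN-H against COPD (unadjusted p = 0.0385, adjusted p = 1) and -0.47 ± 0.32 for EA-BN-H against NC. On log2(TPM + 0.1) the EA-BN-H against COPD value of Gpx2 was 0.03, and it missed the unadjusted p in 5 of the 9 fits with a library left out (NC replicate 2, COPD replicate 2 or 3, EA-BN-H replicate 1 or 3), with the lowest value, 0.51, without COPD replicate 2. Gpx1, the ubiquitous cytosolic peroxidase, had 102, 142 and 79.5 CPM in EA-BN-H, 140.4, 72.5 and 115 CPM in COPD and 76.1, 70.2 and 50.7 CPM in NC. It was higher than NC in all EA-BN-H libraries and in 2 of 3 COPD libraries, with 0.74 ± 0.30 for COPD against NC (unadjusted p = 0.034) and 0.72 ± 0.30 for EA-BN-H against NC (unadjusted p = 0.0377) on the log2 scale. On TPM the EA-BN-H against NC value was -0.01. Gpx4 had 70.3, 65.9 and 71.2 CPM in EA-BN-H, 78.8, 48.2 and 63.8 CPM in COPD and 113, 99.9 and 62.3 CPM in NC, with overlap and a log2 fold change of -0.53 ± 0.26 for COPD against NC. Gpx3, the secreted peroxidase, had 32.5 CPM in NC replicate 1 and between 100.5 and 163 CPM in the other 8 libraries, with no fold change past the unadjusted p.

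Glutathione transferases join glutathione to electrophiles. Of the 10 that were tested, 5 were lower for COPD against NC at an unadjusted p under 0.05, where 5.42% of all genes were lower. All 10 had a negative log2 fold change, from -1.66 to -0.31 with a median of -0.83. This median stayed negative in all 21 alternative settings, between -1.06 and -0.55. For EA-BN-H against COPD, 8 of the 10 were positive, with a median of 0.31 that ran from -0.47 to 0.54 over the alternatives and from 0.06 to 0.52 relative to the median of all genes. For EA-BN-H against NC all 10 were negative, with a median of -0.64.

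Gsta3, an alpha-class transferase, had 77.4, 20.9 and 65.8 CPM in EA-BN-H, 41.1, 39.6 and 27.4 CPM in COPD and 158, 107 and 75.0 CPM in NC. COPD lay below NC without overlap, and EA-BN-H replicate 2 was the lowest library of all while the other EA-BN-H libraries were above every COPD library. The log2 fold change was -1.66 ± 0.45 (SE) for COPD against NC (unadjusted p = 0.00408, adjusted p = 0.0982) and 0.60 ± 0.44 for EA-BN-H against COPD, and the second value was 0.99 without EA-BN-H replicate 2. Gstm1, the main mu-class transferase, had 102, 33.1 and 102 CPM in EA-BN-H, 64.7, 55.7 and 52.8 CPM in COPD and 231, 135 and 105 CPM in NC. Its pattern was the same by library, with -1.44 ± 0.42 for COPD against NC (adjusted p = 0.124), -0.99 ± 0.42 for EA-BN-H against NC and 0.45 ± 0.42 when EA-BN-H was set against COPD. Gstm2, a close relative, had 41.0, 20.2 and 34.0 CPM in EA-BN-H, 33.5, 15.1 and 22.7 CPM in COPD and 93.5, 55.7 and 44.2 CPM in NC. All exposed libraries lay below NC, with -1.44 ± 0.38 for COPD against NC (adjusted p = 0.0923) and -1.02 ± 0.38 for EA-BN-H against NC (adjusted p = 0.236). Reads of the mu-class and alpha-class genes can be shared between near-identical copies, so the split among them is uncertain.

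Gstt1, a theta-class transferase, had 17.6, 15.3 and 16.3 CPM in EA-BN-H, 14.5, 6.01 and 11.6 CPM in COPD and 21.2, 15.9 and 15.2 CPM in NC. COPD was below both other groups without overlap, with log2 fold changes of -0.70 ± 0.30 for COPD against NC (unadjusted p = 0.0442) and 0.61 ± 0.30 for EA-BN-H against COPD (unadjusted p = 0.0725). Mgst1 had 221, 151 and 221 CPM in EA-BN-H, 218, 92.8 and 160.3 CPM in COPD and 429.9, 243 and 222 CPM in NC. All exposed libraries lay below NC, and COPD replicate 1 and EA-BN-H replicates 1 and 3 came within a few CPM of the lowest NC library. Its log2 fold change was -0.93 ± 0.36 for COPD against NC (unadjusted p = 0.0277) and -0.60 ± 0.36 for EA-BN-H against NC (unadjusted p = 0.128). Gstm5, a low mu-class transcript that overlaps an antisense gene in the GENCODE M21 annotation, had 1.57, 1.67 and 1.61 CPM in EA-BN-H, 1.58, 1.06 and 2.40 CPM in COPD and 2.74, 3.55 and 2.68 CPM in NC, below NC in all exposed libraries, with -0.86 ± 0.36 for both exposed groups against NC (unadjusted p = 0.0373). The 4 others, Gsta4, Gsto1, Gstp1 and Mgst3, had log2 fold changes between -0.84 and -0.31 for COPD against NC, and none passed the unadjusted p in any comparison.

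**Figure D3:**
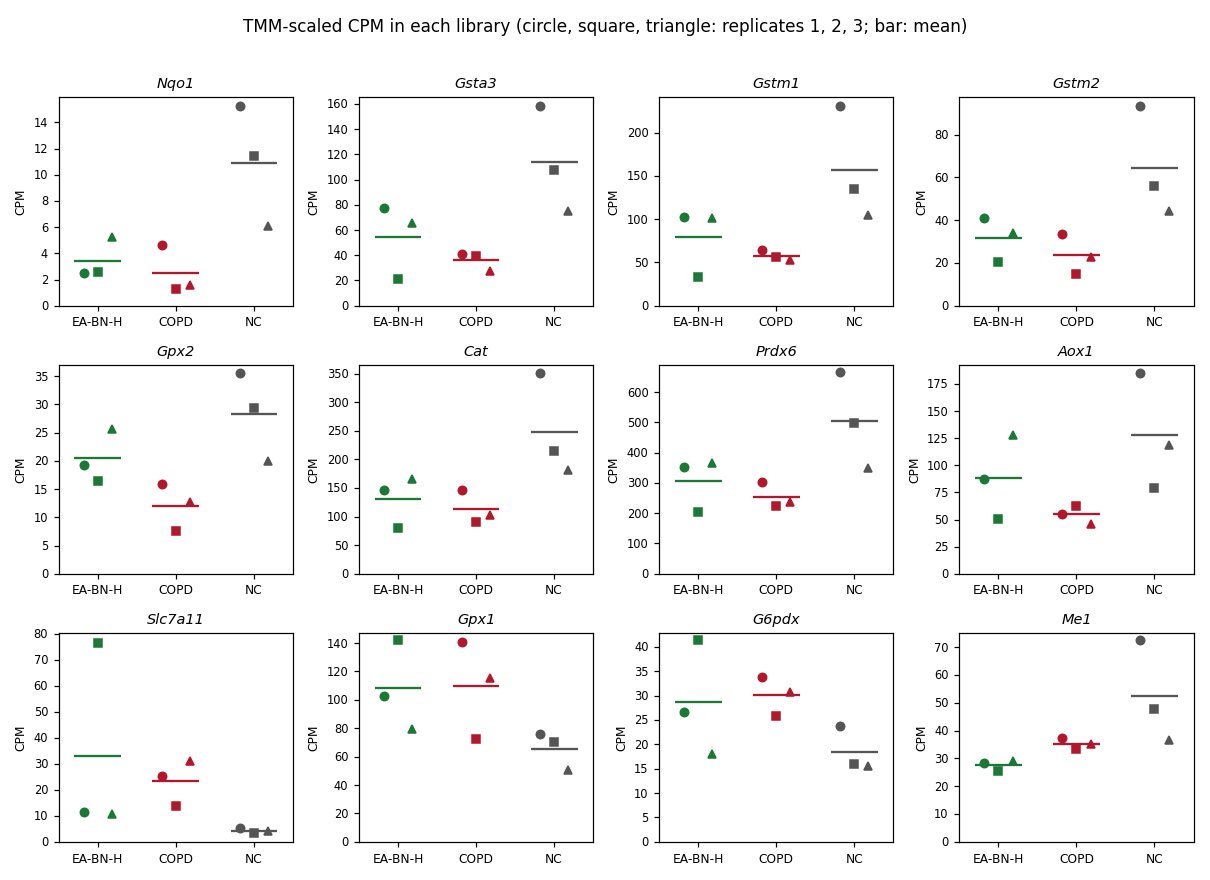
Each panel shows 1 gene, with CPM on an axis from 0, EA-BN-H, COPD and NC from left to right, a symbol per replicate and a bar at the mean. In Nqo1, Gsta3, Gstm1, Gstm2, Gpx2, Cat, Prdx6 and Aox1 every COPD library is below every NC library. In Slc7a11, EA-BN-H replicate 2 stands at 76.6 CPM, above all other libraries.

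The thioredoxin system, which reduces protein disulphides with electrons from NADPH, gave no member past the unadjusted p in any comparison. Txn1, cytosolic thioredoxin, had 44.6, 109.6 and 49.2 CPM in EA-BN-H, 83.7, 36.6 and 77.1 CPM in COPD and 62.9, 44.9 and 34.6 CPM in NC, with 110 CPM in EA-BN-H replicate 2 as the highest library and log2 fold changes of 0.47 ± 0.41 (SE) for COPD against NC and 0.04 ± 0.41 for EA-BN-H against COPD. Txnip, the inhibitor that binds thioredoxin, had 263, 199.6 and 239 CPM in EA-BN-H, 249, 218 and 260.2 CPM in COPD and 319, 289 and 214 CPM in NC. Its groups overlapped, with -0.18 ± 0.23 for COPD against NC and -0.05 ± 0.23 for EA-BN-H against COPD on the log2 scale. Txnip and Keap1 also overlap antisense genes, and whether counting used strand is not given in the sources used here. Mitochondrial Txn2 and Txnrd2, cytosolic Txnrd1, which recharges thioredoxin, and Srxn1, which repairs overoxidised peroxiredoxins, had log2 fold changes between -0.50 and 0.21 for COPD against NC.

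Among peroxiredoxins, Prdx6 had 353, 203 and 364 CPM in EA-BN-H, 304, 224 and 237 CPM in COPD and 665, 498 and 351 CPM in NC. Every COPD library was below every NC library, and its log2 fold change was -0.98 ± 0.32 (SE) for COPD against NC (unadjusted p = 0.0108, adjusted p = 0.158) and 0.27 ± 0.31 for EA-BN-H against COPD. Prdx5, found in mitochondria, peroxisomes and cytosol and named here after its values were seen, had 48.4, 138 and 48.4 CPM in EA-BN-H, 109.7, 51.1 and 118 CPM in COPD and 52.6, 47.1 and 25.6 CPM in NC. EA-BN-H replicate 2 and COPD replicates 1 and 3 were high, the groups overlapped, and the log2 fold change was 1.15 ± 0.48 for COPD against NC (unadjusted p = 0.036). Its exons overlap those of Trmt112 on the other strand. Prdx1, Prdx2, Prdx3 and Prdx4 had log2 fold changes between -0.33 and 0.09 for COPD against NC, and none passed the unadjusted p in any comparison.

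NADPH supply showed opposite signs. G6pdx, the first enzyme of the pentose phosphate pathway, had 26.5, 41.5 and 18.1 CPM in EA-BN-H, 33.8, 25.8 and 30.7 CPM in COPD and 23.7, 15.9 and 15.6 CPM in NC. All COPD libraries were above all NC libraries, EA-BN-H overlapped both, and the log2 fold change was 0.71 ± 0.30 (SE) for COPD against NC (unadjusted p = 0.0414). Me1, the cytosolic malic enzyme and a known Nrf2 target, had 28.3, 25.4 and 28.9 CPM in EA-BN-H, 37.2, 33.4 and 35.2 CPM in COPD and 72.6, 47.7 and 36.8 CPM in NC. EA-BN-H was below COPD and below NC without overlap, with -0.36 ± 0.24 for EA-BN-H against COPD (unadjusted p = 0.165), -0.93 ± 0.24 for EA-BN-H against NC (unadjusted p = 0.00304, adjusted p = 0.0941) and -0.57 ± 0.24 for COPD against NC (unadjusted p = 0.0372). Its exons overlap an antisense gene, and the deposited split of its counts between 2 RefSeq transcripts was nearly all or nothing by library, so only the gene sum was used. Taldo1, transaldolase of the same pathway, had 33.4, 59.0 and 32.1 CPM in EA-BN-H, 55.5, 29.8 and 51.7 CPM in COPD and 48.5, 39.0 and 27.8 CPM in NC, with overlap and 0.25 ± 0.32 for COPD against NC. Pgd and Tkt, its neighbours in the pathway, had -0.07 and 0.11 for COPD against NC, and no fold change past the unadjusted p.

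Cat, the peroxisomal enzyme that breaks down hydrogen peroxide, had 147, 80.1 and 166 CPM in EA-BN-H, 146, 90.8 and 103 CPM in COPD and 351, 214 and 181 CPM in NC. All exposed libraries lay below NC, with a log2 fold change of -1.14 ± 0.35 (SE) for COPD against NC (unadjusted p = 0.00813, adjusted p = 0.139), -0.92 ± 0.35 for EA-BN-H against NC (unadjusted p = 0.023, adjusted p = 0.24) and 0.21 ± 0.34 for EA-BN-H against COPD. Sod1 had 80.5, 39.7 and 55.6 CPM in EA-BN-H, 74.3, 47.3 and 61.2 CPM in COPD and 104, 86.2 and 65.7 CPM in NC, with overlap between COPD and NC and -0.48 ± 0.29 for COPD against NC. Sod3, the extracellular dismutase, had -0.07 for COPD against NC, and neither dismutase passed the unadjusted p in any comparison.

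The 5 genes of detoxification and export had a median log2 fold change of -1.06 for COPD against NC. Of them 4 were lower at an unadjusted p under 0.05, where 5.42% of all genes were lower. Nqo1, which reduces quinones without forming radicals and is the usual marker of Nrf2 activity, had 2.47, 2.56 and 5.24 CPM in EA-BN-H, 4.63, 1.31 and 1.57 CPM in COPD and 15.2, 11.5 and 6.08 CPM in NC. All exposed libraries were below all NC libraries, and COPD replicate 1 and EA-BN-H replicate 3 were nearest to them. Its log2 fold change was -2.12 ± 0.56 (SE) for COPD against NC (unadjusted p = 0.00349, adjusted p = 0.0912), -1.68 ± 0.55 for EA-BN-H against NC (adjusted p = 0.178), 0.44 ± 0.55 for EA-BN-H against COPD (unadjusted p = 0.444) and -1.90 ± 0.45 for both exposed groups against NC (adjusted p = 0.0501). The last adjusted p ran from 0.00263 to 0.166 over 19 alternatives and was under 0.05 in 9 of them. Ephx1, microsomal epoxide hydrolase, had 108, 27.8 and 79.6 CPM in EA-BN-H, 69.9, 51.1 and 50.9 CPM in COPD and 151, 117 and 90.8 CPM in NC. COPD was below NC without overlap, and EA-BN-H replicate 2 was the lowest library of all, with -1.06 ± 0.42 for COPD against NC (unadjusted p = 0.0288) and 0.33 ± 0.41 for EA-BN-H against COPD, the second being 0.71 without EA-BN-H replicate 2.

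Aox1, aldehyde oxidase, had 87.0, 50.8 and 127 CPM in EA-BN-H, 55.5, 62.3 and 46.3 CPM in COPD and 185, 79.3 and 119 CPM in NC. COPD lay below NC without overlap and EA-BN-H spanned both, with log2 fold changes of -1.22 ± 0.37 for COPD against NC (unadjusted p = 0.00804) and 0.69 ± 0.37 for EA-BN-H against COPD (unadjusted p = 0.0899). Osgin1, an oxidative stress-induced growth inhibitor and known Nrf2 target, had 15.5, 12.1 and 14.7 CPM in EA-BN-H, 7.02, 9.93 and 8.87 CPM in COPD and 19.0, 12.6 and 9.44 CPM in NC. EA-BN-H was above COPD without overlap, with 0.71 ± 0.28 for EA-BN-H against COPD (unadjusted p = 0.0307, adjusted p = 1), -0.67 ± 0.28 for COPD against NC (unadjusted p = 0.039) and 0.04 ± 0.28 for EA-BN-H against NC. On log2(TPM + 0.1) the EA-BN-H against COPD value was -0.06 and with library totals 0.26, and it missed the unadjusted p in 4 of the 9 fits with a library left out (COPD replicate 1 or 3, EA-BN-H replicate 1 or 3). Abcc1, which exports glutathione conjugates, had -0.18 for COPD against NC and 0.13 for EA-BN-H against COPD, with no fold change past the unadjusted p.

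Markers of some cell types moved with these genes. Those of alveolar type 2 cells, alveolar type 1 cells and endothelium did not, with none past the unadjusted p for COPD against NC. Their median log2 fold changes were 0.44, 0.23 and 0.21, with 5 of 6, 3 of 5 and 4 of 5 markers positive. In whole lung fewer cells of a type and less RNA per cell cannot be told apart. All 4 club cell markers were found and none was at 0. Their summed level ran from 4352 to 9971 CPM in EA-BN-H, from 3899 to 8660 CPM in COPD and from 10019 to 25625 CPM in NC. NC replicate 1 was the highest library and COPD replicate 2 the lowest. Of the 46 antioxidant genes, 29 were highest of all 9 libraries in NC replicate 1 and 21 lowest in COPD replicate 2. EA-BN-H replicate 2 was the lowest EA-BN-H library for the club cell sum, as for Gsta3, Gstm1 and Ephx1. The members were divided there, as it was the highest EA-BN-H library for 19 of the 46. Over all 9 libraries it was the lowest for 8 members and the highest for 9. All 4 club cell markers had a negative log2 fold change for COPD against NC, with a median of -1.19. Of these, 2 had an unadjusted p under 0.05, where 5.42% of all genes were lower. The 5 ciliated cell markers, none at 0, summed to 466 to 1344 CPM in EA-BN-H, 660.4 to 808 CPM in COPD and 725 to 1647 CPM in NC, with NC replicate 1 highest and EA-BN-H replicate 2 lowest. All 5 had a negative log2 fold change for COPD against NC (median -0.54), and none passed the unadjusted p. The 5 cardiac muscle markers summed to 38.0 to 93.9 CPM in EA-BN-H, 65.8 to 190.1 CPM in COPD and 103 to 349.8 CPM in NC, with a median of -0.91 for COPD against NC and 1 lower at an unadjusted p under 0.05. The 4 adipose tissue markers summed to 13.5 to 25.1 CPM in EA-BN-H, 9.44 to 14.8 CPM in COPD and 20.5 to 43.6 CPM in NC. Most of this sum was Plin4. The 3 tested were all negative for COPD against NC, with a median of -1.30 and 1 lower at an unadjusted p under 0.05 (5.42% of all genes). The part of club cell, ciliated cell, heart muscle or adipose content in the lower antioxidant transcripts was not tested.

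All 6 markers of monocytes and interstitial macrophages were found, none at 0 in any NC library, and their sum ran from 168 to 527 CPM in EA-BN-H, from 214 to 470 CPM in COPD and from 40.1 to 59.0 CPM in NC. All 6 were higher in COPD than in NC at an unadjusted p under 0.05 (10% of all genes), and 4 at an adjusted p under 0.05 (1.53% of all genes). The sum of the 6 neutrophil markers ran from 23.8 to 235 CPM in EA-BN-H, from 55.4 to 87.6 CPM in COPD and from 4.98 to 16.8 CPM in NC, with Ly6g at 0 in 8 of the 9 libraries. Csf3r made up most of the COPD sums, at 38.9, 60.3 and 66.3 CPM. Retnlg overlapped, at 1.58, 0.989 and 0.458 CPM in COPD and 1.21, 1.46 and 0 CPM in NC. Of the 5 tested, 1 was higher in COPD than in NC at an unadjusted p under 0.05 (10% of all genes). For EA-BN-H against NC 4 were higher (9.33% of all genes). The 5 T cell markers summed to 8.43 to 31.0 CPM in EA-BN-H, 16.3 to 35.0 CPM in COPD and 3.77 to 8.04 CPM in NC, and all 5 were higher in COPD than in NC at an unadjusted p under 0.05. EA-BN-H replicate 2, which had the most Slc7a11, Txn1, Prdx5, Gpx1 and G6pdx, had the largest sums of monocyte and interstitial macrophage markers and of neutrophil markers. It did not have the largest sum of alveolar macrophage markers, with 91.5 CPM against 99.4 CPM in EA-BN-H replicate 1 and 119.7 CPM in COPD replicate 1. The part of these cells in the higher transcripts was not tested.

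**Figure D4:**
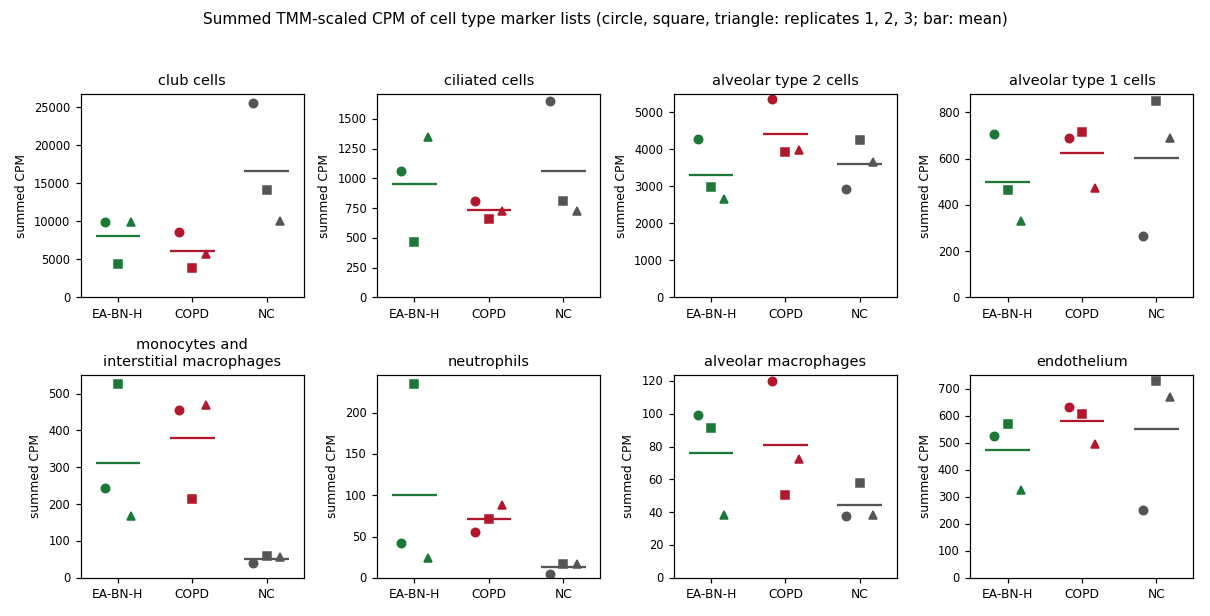
Each panel is a marker list, with the summed CPM on an axis from 0, EA-BN-H, COPD and NC from left to right, a symbol per replicate and a bar at the mean. Club cell sums reach 25625 CPM in NC replicate 1 and 3899 CPM in COPD replicate 2. In the EA-BN-H group the sums of monocytes and interstitial macrophages and of neutrophils are largest in replicate 2, at 527 and 235 CPM. That of alveolar macrophages is largest in replicate 1, at 99.4 CPM.

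Further genes of the same pathways were taken from a list of 51, of which 50 were tested. For COPD against NC, 4 were higher (10% of all genes) and 9 lower (5.42% of all genes) at an unadjusted p under 0.05 and 0 passed the adjusted p in edgeR, the 3 with the smallest p being Abcc3 (-0.90 ± 0.23), Gstk1 (-1.38 ± 0.35) and Sesn2 (0.99 ± 0.26, log2 fold change ± SE). The median was -0.16. Between EA-BN-H and COPD none passed the unadjusted p. For both exposed groups against NC, 6 were higher (11% of all genes) and 11 lower (7.1% of all genes) at the unadjusted p, and 1 in each direction passed the adjusted p. Sesn2, a stress-induced sestrin and a target of ATF4 as well as Nrf2, rose, with 16.8, 15.3 and 15.4 CPM in EA-BN-H, 14.5, 16.1 and 12.4 CPM in COPD and 8.65, 8.40 and 4.65 CPM in NC at a log2 fold change of 1.06 ± 0.24 (adjusted p = 0.0423). Abcc3, an exporter of glucuronides, fell, with 79.3, 56.3 and 80.4 CPM in EA-BN-H, 81.3, 57.0 and 66.2 CPM in COPD and 149.8, 124 and 107 CPM in NC at a log2 fold change of -0.86 ± 0.19 (adjusted p = 0.0416). With single libraries left out in turn, Sesn2 passed in 1 of 9 fits (without EA-BN-H replicate 2) and Abcc3 in 2 of 9 (without EA-BN-H replicate 2 or 3), with highest adjusted p values of 0.115 for Sesn2 (without NC replicate 3) and 0.130 for Abcc3 (without NC replicate 1). Neither passed with library totals (0.147 for Sesn2 and 0.0515 for Abcc3) or with limma on TPM (pseudocounts 0.1 and 1, with 0.412 and 0.377 for Sesn2 and 0.123 and 0.131 for Abcc3), and over 19 alternatives Sesn2 passed in 7 and Abcc3 in 8.

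Genes of enzymes that produce oxidants were higher in the exposed groups. Of 14 listed, 11 were tested, and for COPD against NC 8 were higher (10% of all genes) and 1 lower (5.42% of all genes) at an unadjusted p under 0.05, with a median log2 fold change of 2.02. At the adjusted p 3 were higher (1.53% of all genes) and 0 were lower. Cybb, the catalytic subunit of the phagocyte NADPH oxidase, rose, with 68.9, 267 and 44.6 CPM in EA-BN-H, 192, 67.2 and 235 CPM in COPD and 9.46, 12.8 and 12.1 CPM in NC (adjusted p = 0.0345). Nos2, the inducible nitric oxide synthase, rose by 4.77 ± 1.00 on the log2 scale (adjusted p = 0.0479). Both Cybb and Nos2 also passed for EA-BN-H against NC, at 3.47 and 5.18 (adjusted p = 0.0487 and 0.0483). With single libraries left out in turn, COPD against NC kept an adjusted p under 0.05 in 4 of 9 fits for Cybb and 3 for Nos2, all of them without COPD replicate 2 or an EA-BN-H replicate, and leaving out any NC replicate or COPD replicate 1 or 3 raised it to between 0.110 and 0.154. For EA-BN-H against NC this count was 2 for Cybb and 3 for Nos2, and Cybb had a log2 fold change of 2.31 and Nos2 of 3.12 without EA-BN-H replicate 2. These EA-BN-H against NC calls were also lost with library totals (0.0957 for Cybb and 0.105 for Nos2), no filter (0.0579 and 0.107), only the groups compared (0.115 and 0.116) and limma on log2(TPM + 1), where the log2 fold changes were 1.90 and 2.13. Over all alternatives Cybb passed in 7 of 20 for EA-BN-H against NC and 12 of 20 for COPD against NC, and Nos2, for which DESeq2 gave no adjusted p, in 7 of 19 and 9 of 19. Between EA-BN-H and COPD none passed the unadjusted p, and Cybb had -0.37 ± 0.62 and Nos2 0.41 ± 0.84 on the log2 scale. For both exposed groups against NC, 8 were higher (11% of all genes) and 1 lower (7.1% of all genes) at the unadjusted p. At the adjusted p 6 were higher (2.75% of all genes) and 0 were lower, and this count under the alternatives is not given here. Cybb and Nos2 are genes of phagocytes, whose markers were higher in the same groups, and the part of cell number in these rises was not tested.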

How the data were processed

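Lung RNA of 9 mouse libraries was analysed from 1 deposited table of 129299 RefSeq transcripts on mm10. Per the labels, libraries were made with a stranded total RNA kit and sequenced as paired reads, while the paper names a TruSeq RNA kit. The authors deposited estimated counts (whole numbers), which are not normalized, with FPKM and TPM, which are scaled by transcript length and library depth. Deposited FPKM values were not used. The submitters' processing notes list DESeq2, StringTie 2.1.3b, HISAT2 2.1.0 and Trimmomatic 0.38, with no role or order, while the paper names HTSeq. The strand setting is not given in the sources used here, so genes with overlapping antisense genes are uncertain.

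Estimated counts were summed by gene, and the 18716 genes kept by filterByExpr of edgeR were fitted over all 9 libraries (R 4.3.3, edgeR 4.0.16, TMM, robust quasi-likelihood test, group as the only term). P-values were adjusted by the Benjamini-Hochberg method over all genes tested. Robust dispersion was chosen to match the number of calls in an earlier analysis of these data, after values of the fit without it had been seen. Libraries are not stated to come from separate animals, so p-values measure the spread between these samples, which may be technical, and the depth of each library limits low genes such as Gsta1. With 3 libraries a group, a difference in a single gene can be missed, and a p over the threshold does not show equality.

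Values in all libraries are given for genes whose protein or activity the study names, for members at an adjusted p under 0.05 or at an unadjusted p under 0.05 with groups that do not overlap, and for the most abundant member of each role. The members, lists and tests were chosen with earlier results of these data known. Alternatives were DESeq2 1.42.0, other size factors and filters, limma 3.58.1 on log2(TPM + 0.1) and log2(TPM + 1), the groups compared only, a replicate block and leaving out each library. Methods were tested on simulated data. Promoters came from RefSeq (GRCm38.p6) and exon overlaps from GENCODE M21. The result of 1 gene of the further lists is not reported here.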

Additional observations from a re-analysis of the deposited data

How the results depend on the processing

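Members at an adjusted p under 0.05, which numbered 0 in every comparison, numbered 9 for COPD against NC with DESeq2, which called 2 in the EA-BN-H and NC comparison and 9 for both exposed groups against NC. They numbered 3 for COPD against NC when only the groups compared were fitted, which was not run for both exposed groups. For both exposed groups against NC they numbered 1 with RLE size factors, 5 with library totals, 1 with TMM on nuclear protein-coding genes, 1 with no filter, 3 with at least 10 counts in every library, 2 with limma on log2(TPM + 0.1) and 1 without robust dispersion (Nqo1, adjusted p = 0.0479, edgeR), a setting added after seeing the data. Members at an unadjusted p under 0.05 numbered 11 with library totals and 9 and 9 with limma on TPM (pseudocounts 0.1 and 1) for COPD against NC. Between EA-BN-H and COPD they numbered 1, 1 and 1, and 18, 18 and 18 for EA-BN-H against NC. The same settings gave medians of -0.28, -0.64 and -0.58 for EA-BN-H against COPD, where the medians of all genes were -0.41, -0.70 and -0.44, and of -0.62, -0.89 and -0.75 for EA-BN-H against NC, where those of all genes were -0.38, -0.59 and -0.34. 7SL RNA is included in the library totals. On TPM, Osgin1 had log2 fold changes of -0.0566 and -0.0354 for EA-BN-H against COPD, and Gpx1 of -0.00676 and -0.000779 for EA-BN-H against NC. The cause of these changes was not tested, and the shares of all genes called under these alternatives are not given here.

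With single libraries left out, adjusted counts ran from 0 to 5 for COPD against NC, 0 to 0 between EA-BN-H and COPD, 0 to 1 for EA-BN-H against NC and 0 to 2 for both exposed groups. Unadjusted counts ran from 10 to 17, 0 to 8, 3 to 12 and 10 to 17 in the same order of comparisons, and medians from -0.51 to -0.13, -0.07 to 0.30, -0.36 to 0.01 and -0.48 to -0.08. Same-numbered libraries did not deviate together (residual correlations of 9 pairs from -0.24 to 0.13), and with a replicate block the unadjusted counts were 16, 2, 11 and 16 and the adjusted counts 0. With the block Sesn2 and Abcc3 had adjusted p values of 0.0738 and 0.0735 for both exposed groups, and Cybb and Nos2 of 0.0809 and 0.106 for COPD against NC and 0.160 and 0.181 for EA-BN-H against NC. Of 2075 log2 fold changes of named members under these alternatives, 48 had an adjusted p under 0.05 where none had with the reported settings. The sign differed from the reported one in 119, of which 74 came with library totals or TPM and 70 were for EA-BN-H against COPD. Of these 119, 4 belonged to values reported at an unadjusted p under 0.05, those of Osgin1 and Gpx1 above.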
